A study of Mus musculus with 89 samples.

Results

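Quiescent neural stem cells of the mouse dentate gyrus were deposited with colour codes that divide them further, and the 2 large subsets are compared here gene by gene. The green subset holds the 25 qNSC with a dark green code, and the red subset the 26 with a light red code. They are 51 of the 60 cells of the deposited class qNSC, read here as quiescent neural stem cells, and of the 89 cells in all; the other 9 qNSC carry another colour. The rest of the series is 18 aNSC (activated neural stem cells) and 11 IPC (intermediate progenitor cells). Of the green cells, 15 came from 2-month-old mice and 10 from 4.5-month-old mice, so 40% were from the older mice (exact Clopper-Pearson 95% interval 21.1 to 61.3%). The red subset had 13 cells of each age, 50% from the older mice (29.9 to 70.1%). All mice were homozygous for Nestin:CFPnuc, a cyan reporter held in the nucleus and driven by the Nestin promoter, on a strain labelled C57BL/6. The dentate gyrus was dissected, its live cells were sorted singly by fluorescence, and each became 1 full-length cDNA library. No label names the animal of a cell, and neither how the colours were assigned nor what they stand for is stated.

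Adult hippocampal stem cells are radial glia-like cells that share most of their expressed genes with astrocytes. They stay out of the cell cycle for long periods, and Notch and BMP signals are known to hold them there, while Wnt signals promote activation and neuronal differentiation. On activation they are known to turn down astroglial metabolism and membrane proteins and to turn up protein synthesis and progenitor genes.

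With 1 sample per subset and age there is no spread between animals, so no test was run between the subsets, and the values that follow are sizes with their spread between cells. The colours may have been drawn from these same expression values, so a difference between the subsets is a description of how they were divided and not evidence that they are separate kinds of cell. Total counts per cell were 450012 to 1486350 with a median of 1004304 in green cells, and 244697 to 1485663 with a median of 974500 in red cells. The median green cell had reads of 3840 genes and the median red cell of 3722, or 3454 and 3519 genes after thinning to 444835 reads, for which 0 green and 2 red cells were too shallow. No pair of cells had identical counts.

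The label qNSC was set against marker genes in both subsets. At least 50% of the quiescent stem cell markers had 10 or more reads in 24 of 25 green and 21 of 26 red cells, and at least that share of the astrocyte markers in 24 of 25 and 26 of 26 cells. The astrocyte markers summed to a median of 20283 CPM (a gene's counts scaled to the same total in each cell) in green cells, range 12359 to 40449, and 37541 CPM in red cells, range 14757 to 43595. No cell of either subset passed the same mark for oligodendrocyte precursor, microglia, ependymal, progenitor or neuronal markers, and Eomes, Mki67 and Top2a had no read in any of these cells. Oligodendrocyte markers passed it in 1 green and 2 red cells and endothelial markers in 1 red cell. The oligodendrocyte markers summed to between 0 and 50559 CPM with a median of 328 in green cells, and between 0 and 1728 CPM with a median of 498 in red cells. Reads of Y-linked genes were present (at least 10) in 11 of 15 green and 11 of 13 red cells of 2 months and in no cell of 4.5 months. Xist or Tsix was read at that depth in 9 of 10 green and 11 of 13 red cells of 4.5 months and in no cell of 2 months, so in these cells sex and age cannot be told apart. The leading genes are therefore also shown within each age in a figure, and the text gives the values of both ages for some of them.

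Of 24411 genes, 14584 had a read in these 51 cells and 7613 were measured, meaning that at least 20% of the green or of the red cells had a read. Levels are means over cells of log2(CPM + 1), given ± SD over cells, and differences are green minus red on that scale. Such a difference follows the share of cells with a read as well as the level in those cells, so it is no fold change: it understates the change of genes low in all cells, and it can far exceed the log2 ratio of the summed CPM where many cells have no read. The median gene differed by 0.09, and 54.0% of genes were higher in green. A gene passed the size rule if its difference was at least 1, the CPM of its counts summed over cells differed at least 2-fold, its share of cells with a read did not point the other way, and both ages gave the same direction. The rule held for 757 genes higher in green, 9.94% of those measured, and for 424 genes higher in red, 5.57%. Single-cell levels overlapped between the subsets for every gene, and the difference was larger than the SD over cells in both subsets for only 13 of the 1181. Those were Cfl2, Hax1 and Ssbp4, higher in green, and Cntfr, Gabrg1, Gpr37l1, Htra1, Kcnk1, Ntsr2, Retsat, S100b, Slc38a3 and Smox, higher in red. S100b alone had a read in 75% or more of one subset's cells and in 25% or less of the other's.

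Part of the difference found in the cells of one age was present in those of the other. Within 2 months, 1261 genes (15.2% of 8300) passed the rule as higher in green, and of the 1073 also measured at 4.5 months 673 (62.7%) were again higher in green, against 53.8% of all 7199 genes measured at both ages. Their median difference was 1.63 at 2 months and 0.44 at 4.5 months. Higher in red at 2 months were 902 genes (10.9%), of which 394 of 751 (52.5%) kept that direction at 4.5 months, against 46.2% of all genes, with medians of -1.72 and -0.12. Taken from 4.5 months instead, 1456 genes (17.3% of 8405) were higher in green and 951 (11.3%) higher in red, and of those also measured at 2 months, 57.2% of the 1187 green genes pointed the same way there, against 50.8% of all genes, and 55.0% of the 823 red genes, against 49.2%. The genes past the rule at both ages numbered 265 in the green and 141 in the red direction. Taken from 2 months, these were 24.7% (green) and 18.8% (red) of the genes also measured at 4.5 months. Among all genes measured at both ages, 16.5% and 11.4% passed at 4.5 months. Taken from 4.5 months, the same genes were 22.3% and 17.1%, against 14.9% and 10.4% of all genes at 2 months. The colours may have been set over both ages, so the 2 ages are not independent. Genes can pass this rule through variation between cells alone, so the counts are not counts of changed genes, and the median differences at the other age were well under the size rule's 1.

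**Figure D1:**
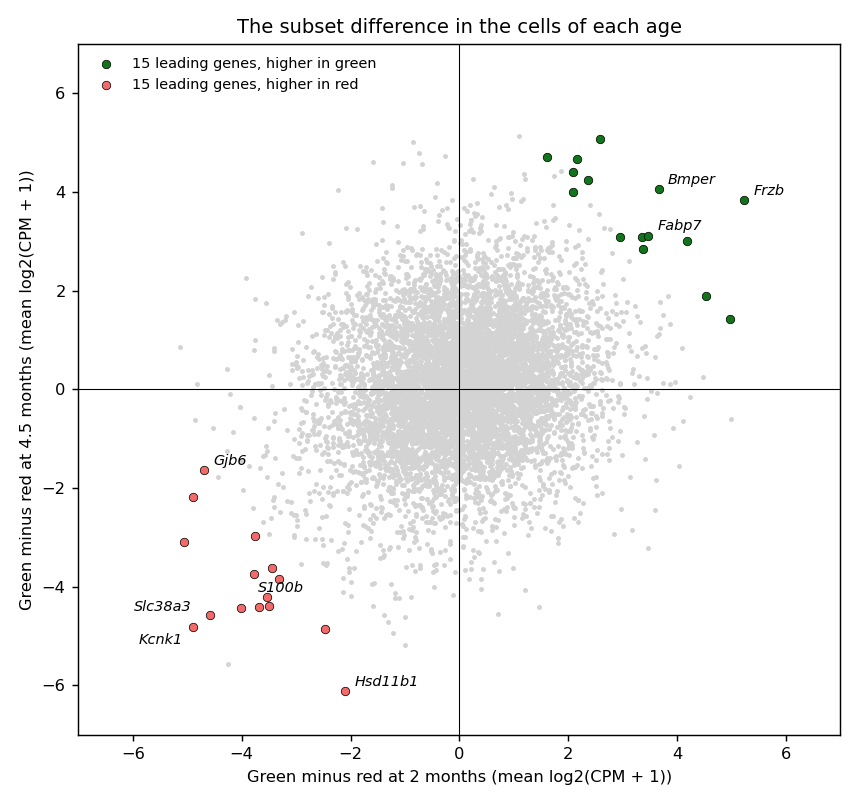
Difference in mean log2(CPM + 1), green minus red, in the cells of 2 months (x axis) and of 4.5 months (y axis). Grey dots are the 7613 genes measured over both ages together and coloured dots the 15 leading genes in each direction, chosen on these cells. The grey cloud has little tilt, while the leading green genes lie at 1.61 to 5.24 at 2 months and 1.43 to 5.07 at 4.5 months and the leading red genes at -2.10 to -5.06 and -1.64 to -6.12.

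The promoters of the leading secreted factors of the green subset, Frzb and Bmper, and of S100b, read in most red and few green cells, are shown because the results turn on these genes. Each is the RefSeq sequence of build GRCm38.p6 from 250 bases before to 50 bases after the annotated start, 5′ to 3′ on the gene's strand. Capitals mark TTGGC, the half-site of nuclear factor I (NFI) proteins, CAGNTG, the E-box of bHLH factors, and GGGCGG, the GC box of SP factors, read on both strands with overlaps allowed; TATAAA was searched too and is in none of them.
Frzb, chr2:80447347-80447646, minus strand: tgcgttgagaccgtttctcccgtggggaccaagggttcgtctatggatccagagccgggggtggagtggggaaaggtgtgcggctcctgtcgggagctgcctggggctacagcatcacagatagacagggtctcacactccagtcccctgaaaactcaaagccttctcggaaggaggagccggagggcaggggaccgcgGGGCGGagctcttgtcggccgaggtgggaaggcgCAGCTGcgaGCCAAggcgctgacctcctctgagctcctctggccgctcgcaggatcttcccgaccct
Bmper, chr9:23222826-23223125, plus strand: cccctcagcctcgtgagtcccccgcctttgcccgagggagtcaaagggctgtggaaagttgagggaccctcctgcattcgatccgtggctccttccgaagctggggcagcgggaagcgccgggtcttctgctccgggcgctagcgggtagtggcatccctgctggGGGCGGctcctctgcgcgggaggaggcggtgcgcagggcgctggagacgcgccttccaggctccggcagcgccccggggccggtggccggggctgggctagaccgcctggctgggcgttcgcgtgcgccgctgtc
S100b, chr10:76253586-76253885, plus strand: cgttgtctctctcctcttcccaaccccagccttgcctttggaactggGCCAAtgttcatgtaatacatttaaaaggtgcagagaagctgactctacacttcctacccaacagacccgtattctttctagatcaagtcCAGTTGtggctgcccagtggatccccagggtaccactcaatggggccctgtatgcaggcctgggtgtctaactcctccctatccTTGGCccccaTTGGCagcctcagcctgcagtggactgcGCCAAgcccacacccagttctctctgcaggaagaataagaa
The S100b window held 4 copies of TTGGC and 1 of CAGNTG, the Frzb window 1 of each and 1 GC box, and the Bmper window 1 GC box. At least 1 TTGGC was found in 12711 of all 27025 promoters of this length and in 51.0% of the 5880 available for measured genes; the shares of all and of these were 51.1% and 40.2% for CAGNTG, 35.9% and 67.3% for GGGCGG and 14.2% and 6.39% for TATAAA. Among the 15 leading green genes, 13 had a promoter, and 5 of these held TTGGC, 6 CAGNTG, 6 GGGCGG and 0 TATAAA. Among the 15 leading red genes, 13 had one, and 8 held TTGGC, 9 CAGNTG, 7 GGGCGG and 1 TATAAA. These are matches of letters in a short window and not binding sites.

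Among the genes higher in green, 2 secreted proteins led. Frzb (chr2:80411970-80447625 in mm10, minus strand) encodes a secreted frizzled-related protein that binds Wnt ligands. It was read in 15 of 25 green cells (60%, 95% interval 38.7 to 78.9) with levels from 0 through a median of 8.16 to 10.84, against 1 of 26 red cells (3.85%, 0.0973 to 19.6), which reached 10.05 while all other red cells were at 0. The mean was 5.14 ± 4.80 in green and 0.39 ± 1.97 in red, a difference of 4.75 (5.24 at 2 months and 3.83 at 4.5 months). Summed over cells, Frzb had 522 CPM in green (Poisson 95% interval 513 to 531) and 10.8 CPM in red (9.56 to 12.2); these intervals, like those of the shares, cover counting error only. At 4.5 months it was read in 6 of 10 green and 0 of 13 red cells, a count that leaves room for up to 23.1% of red cells. The 6 green cells included levels of only 2.07 and 1.69, and over both ages 13 of 25 green cells had 10 or more reads. Most green cells were thus either clearly positive or at 0 for Frzb, and the groups overlapped at 0 and through the single positive red cell.

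Bmper (chr9:23223076-23485200, plus strand) encodes a secreted protein that binds bone morphogenetic proteins. Its level ran from 0 through a median of 5.24 to 10.22 in green cells, 14 of 25 of which had a read, and from 0 through a median of 0 to 8.45 in red cells, 2 of 26 of which had one. The means were 4.24 ± 4.20 in green and 0.36 ± 1.66 in red, a difference of 3.88 that was 3.67 at 2 months and 4.06 at 4.5 months. Frzb and Bmper were read together in 10 green cells, Frzb alone in 5 and Bmper alone in 4, with neither in 6; no red cell had both. Whether they share cells more often than their single shares give was not tested. Lpar1, a lysophosphatidic acid receptor used as a marker of hippocampal stem cells, was read in 11 of 25 green cells and in 3 of 26 red cells, where the level stayed at or below 2.35. Its summed level was 200 CPM (195 to 206) in green and 0.209 CPM (0.0679 to 0.488) in red.

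Fabp7, the brain fatty acid-binding protein of radial glia, was read in all 25 green cells and had the narrowest spread in green of the leading genes. Its level in green cells was 4.58 at the lowest, 9.96 at the median and 12.83 at the highest, and in red cells 0, 6.95 and 10.48, with 22 of 26 read. The means were 9.66 ± 1.87 in green and 6.37 ± 3.43 in red, and the difference of 3.28 was 3.47 at 2 months and 3.12 at 4.5 months. Stmn1, a microtubule regulator of proliferating and young neural cells, ran from 0 through 8.72 to 10.54 in green (22 of 25 cells) and from 0 through 4.53 to 10.62 in red (18 of 26 cells). Its difference of 3.01 placed it rank 16 among the genes higher in green, just behind Dmap1 at 3.03, the last of the 15 leading genes. The lowest green level of Fabp7 and the highest green level of Stmn1 came from the same 4.5-month cell. That cell was the only green cell past the mark for oligodendrocyte markers.

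The other leading green genes act inside the cell. Cfl2, a cofilin that severs actin filaments, averaged 6.00 ± 3.21 in green and 2.23 ± 3.32 in red, and Hax1, a mitochondrial protein that counters cell death, 5.81 ± 3.13 in green and 2.28 ± 3.26 in red; both differences, 3.77 and 3.53, exceeded the SD of either subset. Eif1b, a translation initiation factor, differed by 3.34 and Rpsa, a protein of the small ribosomal subunit, by 3.32. Nuclear proteins were Psip1, a chromatin-bound coactivator (3.27), Dmap1, a subunit of a histone acetyltransferase complex, and Zfp950, a zinc finger protein (3.30; 4.97 at 2 months and 1.43 at 4.5 months). Crls1 makes cardiolipin for mitochondrial membranes (3.22), Rbm18 holds an RNA-binding motif (3.19), Tspan6 is a tetraspanin (3.07) and Nsg1 an endosomal protein of neurons (3.06). BC005624, to which no role is given here, differed by 3.19. All 15 were higher in green at both ages by more than 1. Of the 30 leading genes, 12 overlap exons of a gene on the opposite strand. Among them are Cfl2, Hax1, Eif1b, Psip1, Crls1, Rbm18 and Nsg1 of the green genes and Kcnk1, Retsat, Hacd2 and Coq9 of the red. Since the kit does not record the strand, their values are uncertain. Rpsa shares sequence with processed copies and is uncertain too.

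Of the 15 leading red genes, all past the size rule, the 4 with the largest difference were Kcnk1, Slc38a3, S100b and Gabrg1. Kcnk1 (chr8:125995170-126030685, plus strand), a two-pore domain potassium channel, had the largest difference of them. Its level ran from 0 through a median of 0 to 10.00 in green cells, 8 of 25 of which had a read, and from 0 through 8.89 to 11.05 in red cells, 21 of 26 of which had one. The means were 2.48 ± 3.88 in green and 7.33 ± 4.02 in red, a difference of -4.85 (-4.89 at 2 months and -4.83 at 4.5 months), with a summed level 7.55-fold higher in red. Kcnk1 overlaps the opposite-strand gene model Gm45875. Slc38a3, a glutamine transporter, was read in 12 of 25 green cells with a median of 0 and a highest level of 10.18, and in 24 of 26 red cells with a median of 9.08 and a highest level of 11.02. Its difference of -4.58 was -4.58 at 2 months and -4.57 at 4.5 months, while its summed level of 168 CPM in green and 560 CPM in red differed 3.33-fold. Green cells with a read covered much of the range of red cells, with a few at lower levels.

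S100b (chr10:76253853-76261159, plus strand), a calcium-binding protein of mature astrocytes, was read in 6 of 25 green cells (24%, 9.36 to 45.1) and in 21 of 26 red cells (80.8%, 60.6 to 93.4). Its level was 0 at the lowest, 0 at the median and 8.43 at the highest in green cells, against 0, 7.60 and 9.73 in red cells. The means were 1.78 ± 3.25 in green and 6.08 ± 3.51 in red, and the difference of -4.30 was -4.01 at 2 months and -4.44 at 4.5 months. S100b and Frzb were read together in 1 green cell and no red cell. Gjb6, the gap junction protein connexin 30, ran from 0 through 8.93 to 11.27 in green (18 of 25 cells) and from 0 through 10.78 to 12.49 in red (25 of 26 cells). Its means were 6.76 ± 4.42 in green and 10.20 ± 2.34 in red; the difference was -4.69 at 2 months, where 9 of 15 green and 13 of 13 red cells were positive, and -1.64 at 4.5 months, where 9 of 10 and 12 of 13 were.

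**Figure D2:**
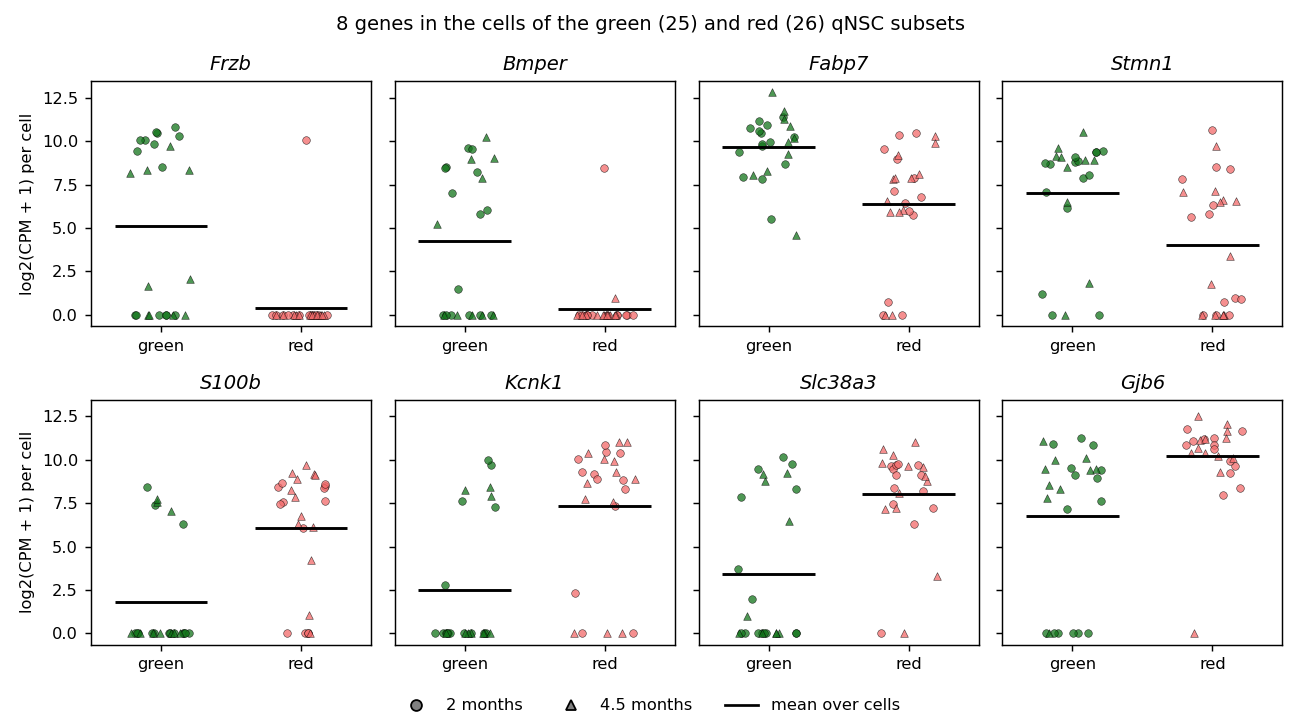
Level of 8 genes, log2(CPM + 1) on the y axis, in each of the 25 green and 26 red qNSC cells; circles are cells of 2 months, triangles cells of 4.5 months and the line is the mean over cells. Frzb and Bmper are at 0 in nearly all red cells (1 and 2 of 26 had a read), S100b and Kcnk1 are at 0 in most green cells (6 and 8 of 25 had a read), and Fabp7 and Gjb6 are shifted with wide overlap.

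Receptors in the same direction were Gabrg1, the gamma-1 subunit of the GABA-A receptor, at 2.42 ± 3.94 in green and 6.67 ± 3.74 in red, and Cntfr, the receptor for ciliary neurotrophic factor, at 2.32 ± 3.08 in green and 5.94 ± 2.60 in red. Enzymes made up much of the rest. Hsd11b1, which regenerates active glucocorticoid, averaged 6.01 ± 4.74 in green and 9.86 ± 3.09 in red, and its difference was -2.10 at 2 months and -6.12 at 4.5 months, the widest gap between the ages among the 30 leading genes. At 4.5 months it was read in 5 of 10 green and 13 of 13 red cells. Smox, a spermine oxidase, was read in 14 of 25 green cells and in all 26 red cells, with a difference of -4.03. Retsat, a retinol saturase, differed by -3.94, Hacd2, an enzyme of fatty acid elongation, by -3.88, Ugp2, which makes UDP-glucose for glycogen, by -3.65, Maob, which breaks down monoamines, by -3.63 and Coq9, needed for coenzyme Q synthesis, by -3.28. Efemp1, a fibulin of the extracellular matrix, differed by -3.50 and Atp13a4, a P-type ATPase, by -3.62. For most of these the summed level differed less than the mean over cells would imply, by 3.38-fold for Hacd2, 2.92-fold for Smox and 2.50-fold for Coq9 (higher in red), and among the green genes by 2.47-fold for Eif1b and 2.80-fold for Hax1 (higher in green). Coq9 at -3.28 was the last of the 15, and Mmgt2 at -3.20 lay just outside. Slc39a12, a zinc transporter, had a difference of -4.83 but did not pass, since its summed level of 513 CPM in green and 910 CPM in red differed by less than 2-fold: 11 of 25 green and 25 of 26 red cells had a read, and the positive green cells reached 11.07. Gpr37l1, an astroglial orphan receptor read in every cell, showed a smaller and steadier difference, with 11.09 ± 0.98 in green and 12.32 ± 0.61 in red.

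The number of leading genes read was counted in each cell. Of the 15 leading green genes, green cells had reads of 8 to 14 with a median of 11, and red cells of 2 to 8 with a median of 4.5. Of the 15 leading red genes, green cells had reads of 1 to 15 with a median of 6, and red cells of 8 to 15 with a median of 13. The genes were chosen for their reads in these same cells, so these counts restate that choice and do not show that the genes occur together. The exceptions were on one side: 26 of 26 red cells had more red than green genes, whereas 5 of 25 green cells did too. These 5 green cells, 3 of 2 months and 2 of 4.5 months, had reads of 12 to 15 red genes and 8 to 11 green genes. All 5 had reads of S100b and Kcnk1 and none of Frzb. Those genes are among the 15 red and 15 green genes by which the 5 cells were picked. Their reads thus follow in part from that choice and do not mark the 5 cells as a separate group. The other 20 green cells had reads of at most 10 red genes. The 5 cells had total counts of 479073 to 1242660, within the range of the subset. In Kcnk1 and S100b together, 5 green and 18 red cells were positive for both.

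**Figure D3:**
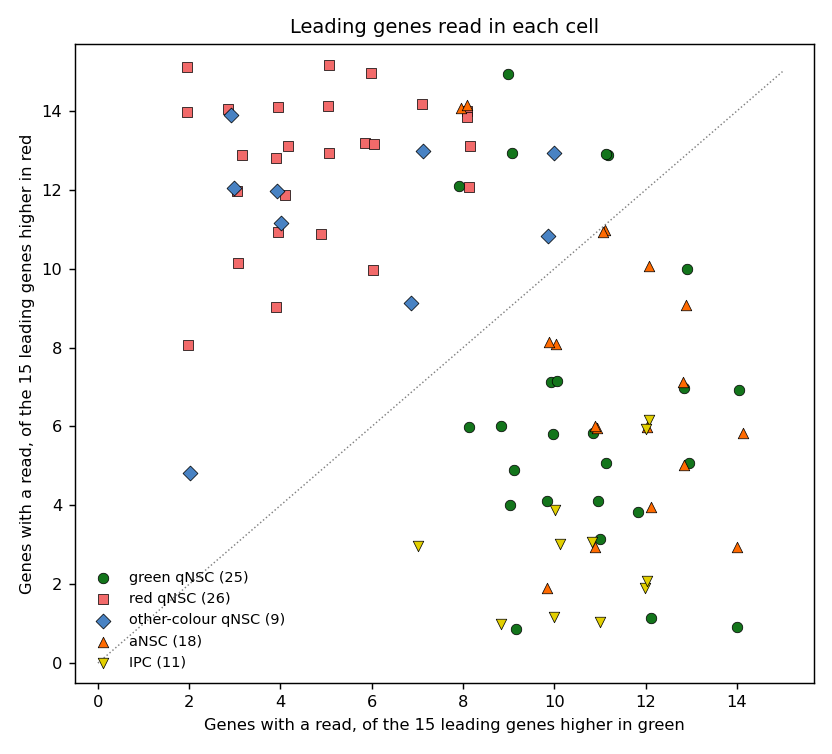
For each cell, the number of the 15 leading green genes (x axis) and of the 15 leading red genes (y axis) with a read, with small random offsets; the dotted line marks equal numbers. All 26 red cells and 5 of the 25 green cells lie above the line, as do all 9 other-colour qNSC, and all 11 IPC lie below it.

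The cells that played no part in choosing these genes fell on both sides. Of the 9 other-colour qNSC, 9 had more red genes (medians of 4 green and 12 red genes). Of the 18 aNSC, 14 had more green genes, 2 more red genes and 2 equal numbers (medians 11 and 6.5), and of the 11 IPC, 11 had more green genes (medians 11 and 3). Frzb averaged 4.23 ± 4.56 in aNSC, where 10 of 18 cells had a read, and was read in 1 of 11 IPC and in 0 of 9 other-colour qNSC, a count that leaves room for up to 33.3%. Over the 11 aNSC with fewer than 10 reads of the oligodendrocyte precursor gene Pdgfra, its mean was 4.55. Of the 18 aNSC, 7 passed the mark for oligodendrocyte precursor markers. Bmper averaged 1.92 ± 3.30 in aNSC, 3.01 over the 11 with few Pdgfra reads and 3.15 in IPC, against 4.24 in green qNSC. Fabp7 in aNSC lay between the subsets (8.48 ± 2.19). Stmn1 was highest in IPC at 12.33 ± 0.50, with 7.03 ± 3.67 in aNSC. S100b and Gjb6 had no read in the 11 IPC, where a count of 0 allows up to 27.3% of cells. In aNSC, Gjb6 averaged 2.42 ± 3.92, below both subsets, and S100b 4.76 ± 4.27 with 11 of 18 cells read, between them; over the 11 aNSC with few Pdgfra reads S100b averaged 2.34. Smox, a red gene, was high in aNSC too (6.91 ± 2.52), and Hsd11b1 was highest in the other-colour qNSC at 11.15 ± 0.63. The classes may also have been drawn from these values, so these levels are given side by side without a test.

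**Figure D4:**
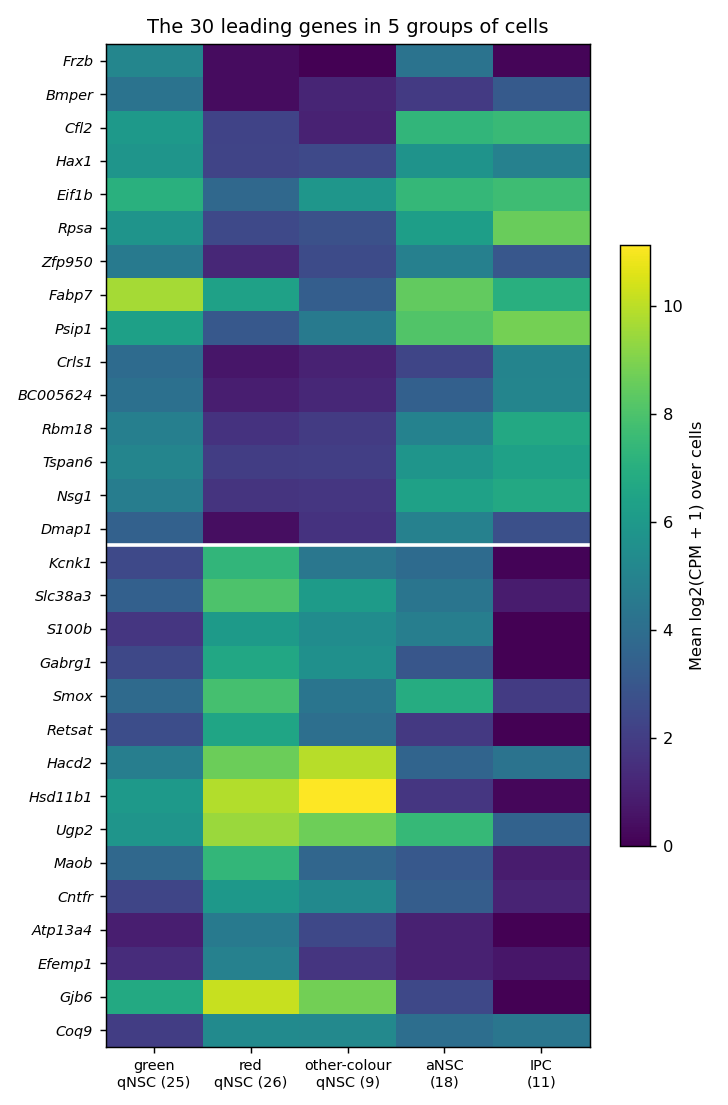
Mean log2(CPM + 1) over cells (colour scale) of the 30 leading genes in the green, red and other-colour qNSC, aNSC and IPC, with the number of cells below each name; the white line parts the genes higher in green (above) from those higher in red (below). Most genes of the upper block are also well above 0 in aNSC and IPC, and most of the lower block are near 0 in IPC, with Gjb6 and S100b at 0.

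Stem cell identity genes did not move as one. Of 22 measured, 16 lay above the all-gene median and 8 passed the rule as higher in green (36.4%, against 9.94% of all genes), with a list median of 0.81 against 0.09 over all genes. Besides Fabp7 and Lpar1 these were Nr2e1, the orphan nuclear receptor of adult stem cells (1.97 higher in green; 2.51 at 2 months and 0.82 at 4.5 months), Tfap2c, a transcription factor of progenitors (1.82), Hes5, a Notch target (1.70), Vim, an intermediate filament (1.63), Id1, a BMP target (1.54), and Prom1, a membrane glycoprotein (1.43; 2.21 at 2 months and 0.41 at 4.5 months). Id2, also a BMP target, passed in the red direction at 7.67 ± 3.06 in green and 9.80 ± 1.18 in red, as did Hes1, at 2.83 and 4.26. Genes commonly used to identify these cells overlapped widely and did not pass the rule. Hopx, a marker of quiescent stem cells, was 11.30 ± 1.05 in green and 10.43 ± 1.32 in red, Id4, which holds stem cells quiescent, 9.20 ± 1.15 and 8.46 ± 2.68, and Gfap, the glial filament, 8.52 ± 2.31 and 7.50 ± 2.52. Sox2 had 4.53 ± 3.39 in green and 5.79 ± 2.68 in red, and Egfr, the epidermal growth factor receptor, 1.62 ± 3.02 and 1.13 ± 2.60. Nes, whose promoter drives the reporter, was read in 3 of 25 green and 1 of 26 red cells and Abl1, a tyrosine kinase, in 4 of 25 and 1 of 26, too few to be measured.

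Those progenitor and neuroblast genes that could be measured, 15 of the 30 listed, lay towards green. Eomes, Igfbpl1 and Insm1 of the list had no read in either subset. Of 15 measured, 14 were above the all-gene median, the list median was 0.88, and 5 passed the rule in the green direction (33.3%, against 9.94% of all genes) and 0 in the red (5.57% of all genes). The 5 were Stmn1, Tubb5, a tubulin (5.07 ± 4.09 in green and 2.82 ± 3.47 in red), Ccnd2, a D-type cyclin (5.18 ± 3.70 and 3.28 ± 3.29), Marcksl1, an actin-binding membrane protein (1.71 higher), and Stmn3, a stathmin of neurons (1.27 higher). The Ccnd2 difference was 0.32 at 2 months and 3.56 at 4.5 months, where 8 of 10 green and 4 of 13 red cells had a read. The actin-binding thymosins of the list, Tmsb4x and Tmsb10, had differences of -0.04 and 0.12. Few cell cycle genes were read often enough to be measured. They were 10 of 23 G1 genes (median -0.07), of which Ccnd2 and Cdk4, a cyclin-dependent kinase (1.24), passed in the green direction; 18 of 46 DNA replication genes (median 0.52), of which Rfc4, a clamp loader subunit read in 6 of 25 green and 0 of 26 red cells, passed (1.12; its exons overlap those of Eif4a2); and 6 of 45 mitosis genes (median 0.58), of which Hmgb2, a chromatin protein, passed (1.04). Those past the rule were 20% of the G1, 5.56% of the replication and 16.7% of the mitosis genes measured, against 9.94% of all genes. None passed in the red direction, against 5.57% of all genes, and with so few genes measured that absence says little.

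Mature astrocyte genes lay towards red. Of 29 measured, 25 were below the all-gene median, the list median was -0.85 (-1.17 at 2 months and -0.97 at 4.5 months), and 8 passed in the red direction (27.6%, against 5.57% of all genes) and 0 in the green. With S100b and Gjb6 these were Slc4a4, a sodium bicarbonate cotransporter (3.30 ± 3.76 in green and 6.42 ± 3.69 in red), Slc7a10, an amino acid transporter (6.11 and 9.12), F3, tissue factor (7.90 and 10.37), Grin2c, an NMDA receptor subunit (1.88 and 4.18), Gjb2, connexin 26 (0.64 and 1.74), and Ntsr2, a neurotensin receptor (11.17 and 12.25). Glul, glutamine synthetase, and Aldh1l1, a folate enzyme, differed by -2.11 and -1.92 without passing. Astroglial genes read in every cell of both subsets varied in size of difference. Gja1, connexin 43, had a difference of -1.13, like Ntsr2 at -1.08, while others differed less: Apoe, the lipid carrier, had 14.69 ± 0.31 in green and 14.83 ± 0.56 in red, Aldoc, a glycolytic aldolase, 13.54 ± 0.58 and 14.01 ± 0.43, and Slc1a3, a glutamate transporter, 13.05 and 12.73. Aqp4, the water channel, had 6.59 ± 4.29 and 8.40 ± 3.27. Of 26 genes of gap junctions, water channel and astroglial membrane proteins, 21 lay below the all-gene median (median -0.52), with Ncam1, a cell adhesion molecule (-1.92), and Bcan, a proteoglycan (-1.39), among the 5 that passed in the red direction; Cd82, a tetraspanin, passed in the green direction at 2.97. Several genes are members of more than one list.

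Energy metabolism showed small differences spread over many genes. Of 27 glycolysis and pyruvate genes, 22 were below the all-gene median, with a list median of -0.71, but only Pfkm, the muscle-type phosphofructokinase, passed in the red direction (4.45 ± 4.13 in green and 7.19 ± 3.23 in red), and Eno2, the neuronal enolase, passed in the green direction (1.35). That is 3.70% each way, against 5.57% (red) and 9.94% (green) of all genes. Gapdh differed by -0.85 and Ldhb, a lactate dehydrogenase, by -1.01. Of 75 nuclear genes of oxidative phosphorylation, 58 were below the all-gene median and 0 passed in either direction, below both shares of all genes. The list median was -0.44 (-0.70 at 2 months and -0.21 at 4.5 months), and Cyc1 of complex III was the lowest at -1.92. Of 16 growth factor receptors 12 were below the all-gene median (list median -0.48). Among the 16, Cntfr passed in the red direction (6.25%, near the 5.57% of all genes). Ddr1, a collagen receptor, passed in the green at 1.11 (6.25%, against 9.94% of all genes). The 3 lists of membrane proteins, oxidative phosphorylation and growth factor receptors lost this position under several other settings.

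**Figure D5:**
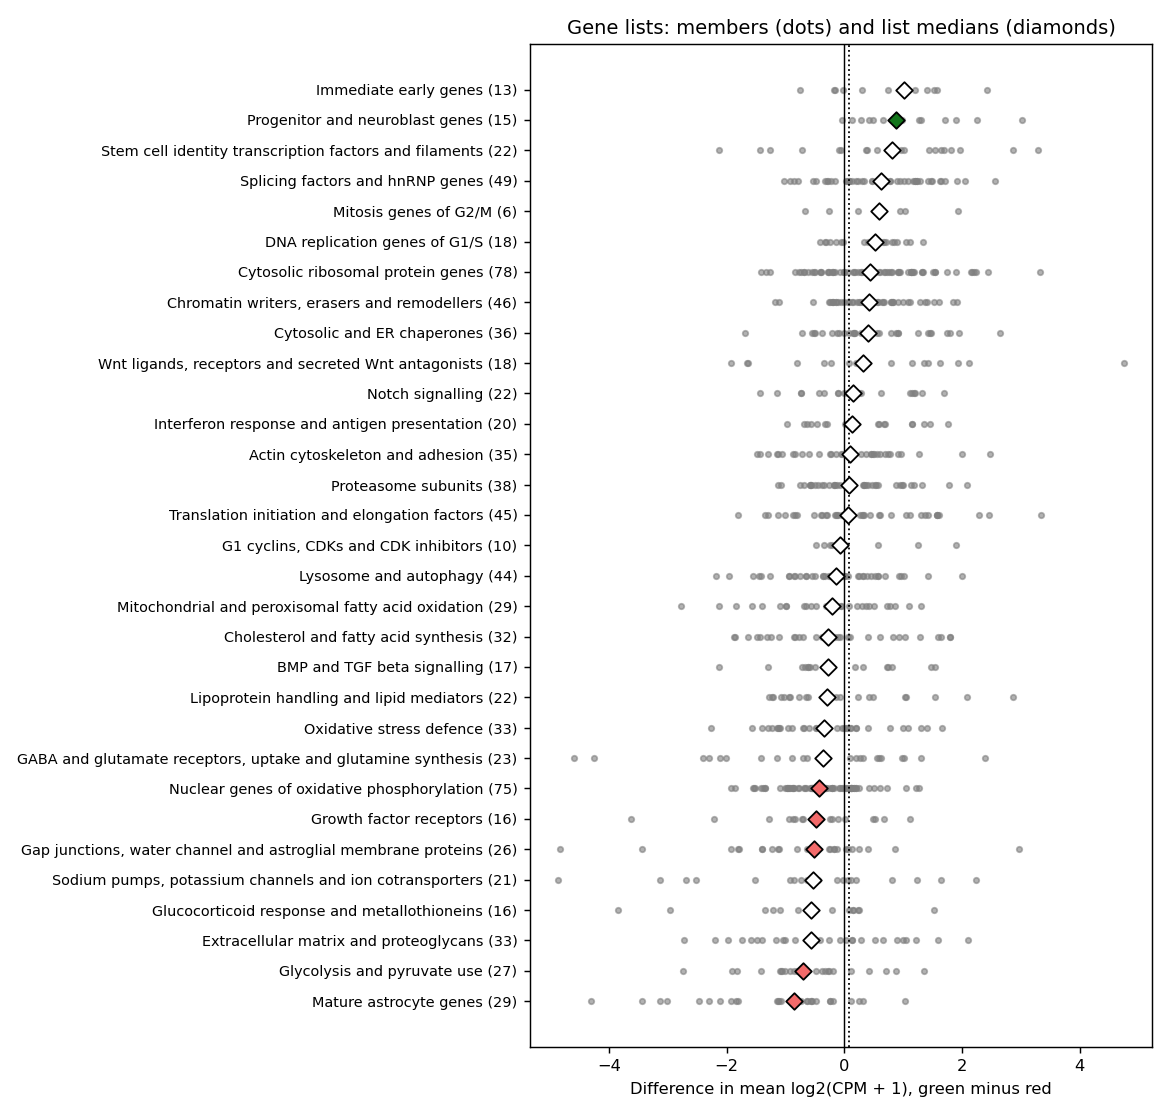
Difference in mean log2(CPM + 1), green minus red, of each measured member (grey dots) of 31 gene lists, with the list median as a diamond and the number of members in brackets; the dotted line is the median of all 7613 genes, 0.09. Green and red diamonds mark lists with at least 75% of members on one side of it and a median at least 0.5 away, which held for 1 list higher in green and 5 lists lower; members of every list spread to both sides of 0.

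Signalling and transmitter genes were split. Of 18 Wnt genes, 7 passed in the green direction (38.9%, against 9.94% of all genes): Frzb, the receptors Fzd1 (2.12) and Fzd3 (1.42), the secreted antagonist Dkk3 (1.92), and the nuclear effectors Lef1 (1.62), Ctnnb1 (1.35) and Tcf7l2 (1.14). Fzd3 and Lef1 rested on 1 age, with 2.24 and 2.50 at 2 months and 0.24 and 0.23 at 4.5 months. Lgr4, a receptor for R-spondins, passed in the red direction at -1.63 (1 of 18, 5.56%, against 5.57% of all genes), and the receptors Fzd9 and Fzd2 had -1.93 and -1.66 without passing. Antagonists and activating components thus stood together among the 7, and the list median of 0.31 was near the all-gene value. Of 22 Notch genes, Hes5, Notch1 (1.31), Psen2, a secretase subunit (1.15), and Numbl, a Notch inhibitor (1.11), passed in the green direction (18.2%, against 9.94%) and Hes1 in the red (4.55%, against 5.57%). The Numbl difference was 0.46 at 2 months and 2.14 at 4.5 months. Of 17 BMP and TGF beta genes Id1 and Acvr2a, an activin receptor (1.47), passed in the green (11.8%) and Id2 in the red (5.88%), shares near those of all genes. Of 23 genes of GABA and glutamate handling, 5 passed in the red direction (21.7%, against 5.57% of all genes): Slc38a3, Gabrg1, Abat, which degrades GABA (-2.41), Grin2c and Gabra2, a GABA-A subunit (-1.14). Gria1, an AMPA receptor subunit (2.39), and Slc38a1, a glutamine transporter (1.01; 1.64 at 2 months and 0.27 at 4.5 months), passed in the green (8.70%, against 9.94% of all genes). Of 16 glucocorticoid genes, 2 passed in the red direction (12.5%, against 5.57% of all genes) and 0 in the green, while 6 of the 16 were higher in green. Tsc22d3, a target of the receptor, averaged 3.63 ± 4.26 in green and 6.59 ± 3.66 in red. Dusp1 of the same list went the other way without passing, at 5.46 ± 3.79 in green and 3.94 ± 3.77 in red.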

How the data were processed

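The authors deposited estimated counts per gene and cell and, in a second deposited table, TPM; another deposited table gives each cell its class and colour. STAR, RSEM and mm10 are named in the submitters' processing notes, without versions. Of the counts above 0, 4.44% were not whole (tolerance 1e-06), and counts were rounded. Cells are not replicates and no animal is named, so each subset and age was 1 sample, with no test, p-value or standard error. Counts were scaled to CPM and averaged as log2(CPM + 1). Shares have exact Clopper-Pearson and summed CPM exact Poisson 95% intervals; the libraries carry no molecular identifiers, reads are therefore not independent, and these intervals cover counting error only.

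The genes named are the 15 with the largest difference each way past the size rule (predicted genes, pseudogenes, Xist, Tsix and Y-linked genes left out), 4 markers (Frzb, S100b, Stmn1 and Gjb6), 13 set genes and up to 3 members of each of 31 gene lists; further list members past the rule were named after their values were seen. A list is described by its counts and median, beside those of all genes. The members, lists and rules were chosen with earlier results of these data known. Of 121 genes named by the rule, 120 had a position in the GENCODE M21 annotation of mm10, and 44 overlap exons of an opposite-strand gene. No doublet caller was run, since each well was sorted as 1 cell. The procedure was tested on simulated data, in which many genes left unaltered also passed the size rule. Tools were Python 3.11.15, numpy 2.4.6, pandas 2.3.3, scipy 1.17.1, R 4.3.3, edgeR 4.0.16 (TMMwsp factors alone) and DESeq2 1.42.0 (poscounts size factors alone). The alternatives were these 2 scalings, TPM, a pseudocount of 10, no filter, a filter of 50% of cells, thinning, each age alone, ages weighted equally, leaving out the 4 cells with markers of other types, and the ratio of summed CPM in place of the difference in means.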

Additional observations from a re-analysis of the deposited data

How the results depend on the processing

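No paired analysis was possible because the numbers in the sample titles name cells and no label ties cells of the subsets to each other. The count of genes past the size rule, 757 higher in green and 424 higher in red, depended on the setting. It was 261 and 153 with a pseudocount of 10, 261 and 180 with a filter of 50% of cells, 1261 and 902 in the 2-month cells alone and 1456 and 951 in the 4.5-month cells alone, and 1289 and 616 with the ratio of summed CPM; the cause was not tested beyond what these settings themselves change. Under the other settings it ran from 664 to 822 in green and from 328 to 460 in red, and the share of these genes higher in green was 58.3 to 67.7% over all settings, against 64.1%. The median over all genes ran from -0.04 to 0.22 and was below 0 with DESeq2's poscounts (-0.01) and the 50% filter. Of the 72 named genes past the rule, 56 passed it at 4.5 months alone, 60 at 2 months alone, 61 with the 50% filter, 63 with a pseudocount of 10, 64 with poscounts, 65 with TMMwsp and with TPM, 66 without the 4 cells, 70 after thinning and all 72 under the 3 others. None turned its direction under the 12 alternatives, which the rule itself fixes for the 2 ages alone. The 30 leading genes passed in each alternative, except 27 at 2 months alone and 28 at 4.5 months alone.

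Among the lists, mature astrocyte genes stayed on the red side under every alternative and glycolysis under all but the ratio of summed CPM. Progenitor genes lost their place on the green side with a pseudocount of 10 and with no filter. Growth factor receptors, oxidative phosphorylation and the membrane protein list lost theirs under several, deposited TPM among them. Other lists gained a place under some alternatives. Stem cell identity genes did on the green side with ages weighted equally and without the 4 cells. Glucocorticoid genes did on the red side under several, among them TPM, thinning and the 2-month cells alone. Immediate early genes did on the green side in the 4.5-month cells alone and without the 4 cells. The 50% filter placed chaperone and splicing genes on the green side. Depth limits the low genes: at median totals of 1004304 (green) and 974500 (red) counts per cell and with 25 and 26 cells, a gene read in few cells cannot be told from one that was missed.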

Other observations

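Lists of nuclear and protein-synthesis genes differed in how many members passed the size rule. Of 49 measured splicing genes, 8 passed in the green direction and 0 in the red (16.3%, against 9.94% and 5.57% of all genes), with a list median of 0.62; Sf3a3, a subunit of the U2 particle, had a mean of 4.23 in green and 1.67 in red, and Srsf1, a splicing factor, 5.38 and 3.48. Of 46 chromatin genes 8 passed in the green direction (17.4%) and 1 in the red (2.17%), with Kat6b, a histone acetyltransferase, at 1.91 and Chd7, a remodeller of stem cells, at 1.61. Of 78 cytosolic ribosomal protein genes 10 passed in the green direction and 0 in the red; 12.8% is near the 9.94% of all genes, 25 of the 78 were lower in green, and the list median was 0.43; reads of these genes can be shared with processed copies. Of 45 translation factors 2 passed in the green direction (4.44%, below the share of all genes) and 1 in the red (2.22%), with a list median of 0.06. Of 36 chaperones 6 passed in the green direction (16.7%) and 0 in the red, among them the chaperonin subunits Cct6a (7.50 ± 2.93 in green and 4.85 ± 3.61 in red), Tcp1 (1.95) and Cct4 (1.43).

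Immediate early genes had a list median of 1.02 that differed between the ages, with 0.16 in the 2-month cells and 1.29 in the 4.5-month cells. Of 13 measured, 9 were above the all-gene median and 3 passed in the green direction (23.1%, against 9.94% of all genes) and 0 in the red: Cyr61, a matricellular protein (1.57), Ier5 (1.40) and Egr1, a zinc finger factor (1.20; 0.28 at 2 months and 2.47 at 4.5 months). Jun, a subunit of AP-1, had 5.58 ± 3.81 in green and 3.15 ± 3.72 in red without passing, and Fos, its partner, had a difference of -0.16. Cholesterol and fatty acid synthesis was split, with Idi1 (1.65) of the sterol pathway and Acly (1.28), which supplies acetyl-CoA, among the genes past the rule in the green direction, and the sterol regulators Insig1 (-1.87) and Insig2 (-1.86), the elongase Elovl2 (-1.64) and Fasn (-1.49), the fatty acid synthase, among those past it in the red.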
